A study of Homo sapiens with 9 samples.

Results

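The thyroid hormone triiodothyronine (T3) was compared with vehicle in HepG2, an established line of human hepatoma cells. The comparison takes 6 of the 9 arrays of the series, 3 with T3 at 10 nM for 24 h and 3 with vehicle for 24 h. Groups were taken from the sample titles. Cells of every group were incubated in medium with serum depleted of thyroid hormone, so the vehicle cells lacked added ligand. The other 3 arrays held GC-1, a synthetic thyroid hormone receptor ligand, at 10 nM. They entered to estimate the spread, to be set beside T3, and in the mean signal over all 9 arrays. That mean chose the probe set of each gene and ranked genes and probe sets from dim to bright. After removal of array controls 22215 probe sets with a log2 signal remained, from which 11963 genes were read, 1 probe set each. HepG2 is a single tumour line, and nothing in the labels says whether replicates came from separate cultures, and a p-value therefore covers the spread between these samples alone, which may be technical.

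T3 enters cells through membrane transporters and binds nuclear receptors, TR-alpha and TR-beta, which sit on DNA mostly as dimers with the retinoid X receptor. Without hormone the receptors recruit corepressors to many target genes, and hormone exchanges these for coactivators. In the liver the hormone is known for its control of lipid, cholesterol and carbohydrate metabolism, and the core of its response element is a hexamer half-site, AGGTCA.

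On the values as deposited, T3 raised more genes than it lowered. Signal was higher in 539 of 11963 genes (4.51%) and lower in 205 (1.71%) at a Benjamini-Hochberg adjusted p under 0.05 in limma, a moderated linear model. Over probe sets, 888 were higher and 334 lower, which is 1222 of 22215 (5.50%). Changes were mostly small, since 121 probe sets (0.545%) passed with a difference of at least 1.5-fold, 109 of them higher. Among all genes the median difference was -0.017 log2, and 5255 of 11963 were positive. The arrays measure RNA from whole cultures, so fewer cells making a transcript and less of it in each cell cannot be told apart.

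The split between higher and lower probe sets moved with the spread of the arrays. The interquartile range was 2.99 and 2.97 on T3 arrays 1 and 2, 2.88 on T3 array 3, 2.87 to 2.88 with vehicle and 2.83 to 2.85 with GC-1. When the arrays were brought to a common median and spread, 662 probe sets were higher and 505 lower, so that 56.7% of the called probe sets were higher in place of 72.7%. With the interquartile range as a covariate the counts were 932 and 1152. Leaving out vehicle array 1 gave 549 higher and 112 lower, leaving out vehicle array 3 gave 543 and 129, and without vehicle array 2 they were 589 and 157. Without T3 array 1 they were 589 and 190, and without GC-1 array 2 they were 696 and 209. A further alternative, chosen after seeing the data, left out T3 arrays 1 and 2. It keeps 1 T3 array, number 3, which had the lowest array weight (0.300), and assumes that it varies like the other groups. The median difference over all probe sets was -0.008 log2 there and -0.015 in the main fit, and the fit carries no replicate check of T3. In all, 19 alternatives were run, and a lost call is one that no longer passed in an alternative.

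**Figure D1:**
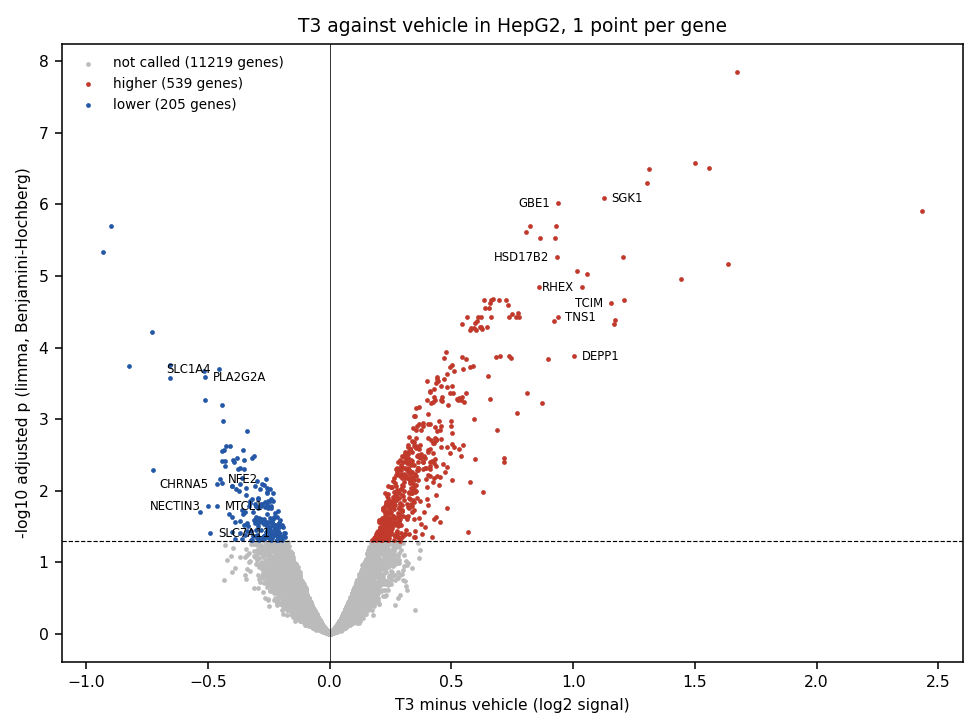
Volcano plot of T3 minus vehicle, 1 point per gene, with the log2 difference on the x axis and -log10 of the limma adjusted p on the y axis. Red points are the 539 higher genes, blue the 205 lower and grey the rest, the dashed line is the 0.05 threshold, and the first 7 named genes of each direction are labelled.

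**Figure D2:**
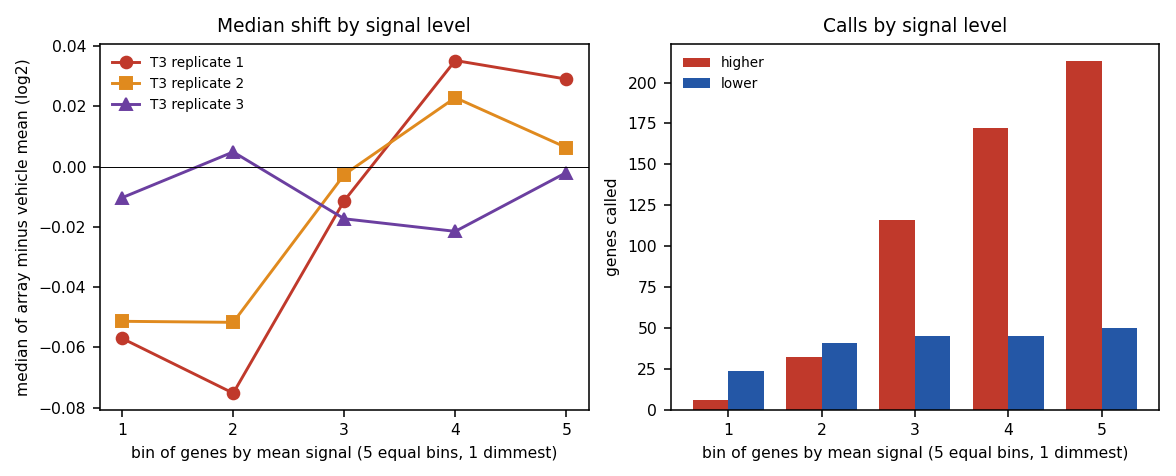
Genes split into 5 equal bins by mean signal over the 9 arrays, bin 1 being the dimmest. On the left, the median difference of each T3 array from the vehicle mean (log2) falls below 0 in the dim bins of T3 arrays 1 and 2 and rises above 0 in the bright ones, while T3 array 3 stays between -0.02 and 0.005. On the right, bars give the called genes, with higher calls going from 6 to 213 and lower calls from 24 to 50.

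Bright genes carried most of the increases. With genes in 5 equal bins by mean signal, in the dimmest bin 6 genes were higher and 24 lower, in the middle bin 116 and 45, and in the brightest 213 and 50. The median difference of T3 array 1 from the vehicle mean was -0.06 log2 in the dimmest bin and 0.03 in the brightest. T3 array 2 went from -0.05 to 0.006, and T3 array 3 from -0.01 to -0.002.

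The liver markers were among the bright genes of the arrays. Of 13 hepatocyte and hepatoma markers 12 were measured, with vehicle signals from 11.2 to 14.4 and a median of 13.7. Albumin (ALB) read 14.37, 14.38 and 14.42 with vehicle and 14.43, 14.37 and 14.54 with T3, and the ranges overlapped. In this list FGB and APOB were higher and KRT18 was lower, although APOB lost its call in 14 of the 19 alternatives and KRT18 in 9. The 19 measured markers of blood, vessel, stromal, squamous, bile duct, neural and muscle cells had a median vehicle signal of 6.52 and a median difference of -0.12, and 4 of them were positive. KRT19, a keratin of bile duct cells at a mean of 10.49 with vehicle, was the called one. Vehicle signals in this list ran from 4.79 to 11.19. Next by p-value, DCN, SYT1 and DES differed by -0.27, -0.22 and -0.23 and did not pass (limma adjusted p 0.121 to 0.166). All T3 arrays lay below vehicle in 4 of the 19 markers, beside 13.3% of all genes, and above in 0, beside 13.6%. Picked by cell type, the endothelial CDH5, the T cell gene CD3E and the pan-leukocyte PTPRC lay at 4.83, 7.07 and 4.88 with vehicle and did not pass.

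The genes described singly are the 20 with the largest increase and the 20 with the largest decrease among those that passed the threshold and whose 3 T3 arrays all lay to one side of the vehicle arrays. A set of 72 genes already named for these arrays was left out of that ranking, and it holds the largest changes in both directions, 2.43 and -0.93 log2. Arrays separated in this way in 1622 genes upwards (13.6%) and 1594 downwards (13.3%), and 683 genes met all the criteria, 495 higher and 188 lower. The ranking itself makes these genes large and the criteria require their groups to be apart, so both their sizes and that separation are a description.

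The promoters of RHEX and GBE1 are shown because, of the 20 named increases, these were the ones whose RefSeq promoter held the receptor half-site within 250 bases before to 50 bases after the start. RHEX encodes an adaptor of erythropoietin signalling and GBE1 the glycogen branching enzyme. Both are written 5′ to 3′ on the gene's own strand (GRCh38.p14), in lower case, with the half-site in capitals, which in both reads as the reverse complement TGACCT. The RHEX window is chr1:206083345-206083644 on the plus strand and the GBE1 window is chr3:81761596-81761895 on the minus strand.
RHEX promoter: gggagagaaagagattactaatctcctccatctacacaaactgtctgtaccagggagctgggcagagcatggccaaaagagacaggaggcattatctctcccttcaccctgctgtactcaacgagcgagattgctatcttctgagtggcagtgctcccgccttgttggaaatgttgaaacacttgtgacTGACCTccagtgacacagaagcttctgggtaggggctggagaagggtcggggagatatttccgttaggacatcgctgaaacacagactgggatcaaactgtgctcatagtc
GBE1 promoter: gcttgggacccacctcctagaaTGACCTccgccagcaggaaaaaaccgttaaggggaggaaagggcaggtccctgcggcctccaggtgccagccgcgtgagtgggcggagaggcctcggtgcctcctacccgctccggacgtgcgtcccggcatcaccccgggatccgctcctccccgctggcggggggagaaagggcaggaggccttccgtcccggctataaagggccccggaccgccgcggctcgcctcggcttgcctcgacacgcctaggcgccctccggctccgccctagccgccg
The half-site begins 61 bases before the start of RHEX and 228 before that of GBE1. Searched on both strands as AGGTCA or TGACCT, it was found in 989 of the 9563 measured genes with a promoter in the table (10.3%). It was in 54 of 434 higher genes (12.4%) and 13 of 173 lower genes (7.51%), and in 3806 of all 27305 promoters in the table (13.9%). Of the named genes 15 in each direction had a promoter there, and 2 increases and 1 decrease held the hexamer. A match describes these letters and is not a binding site.

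The 4 largest of the named increases were TCIM, SGK1, RHEX and DEPP1. TCIM, a small protein known for acting on beta-catenin signalling, read 7.57, 7.58 and 7.79 with vehicle and 8.77, 8.65 and 8.98 with T3. All T3 arrays were above all vehicle arrays, and the difference was 1.16 ± 0.09 log2 (SE, n = 3 arrays per group), or 2.23-fold, with an adjusted p of 2.40e-05. SGK1, a serum- and glucocorticoid-regulated kinase that controls ion channels and transporters, went from 9.08, 9.01 and 9.11 to 10.18, 10.15 and 10.24, a 2.18-fold rise with an adjusted p of 8.26e-07. The groups did not overlap. RHEX rose from 6.83, 6.60 and 6.89 to 7.90, 7.78 and 7.75 in 1 of its probe sets, 2.05-fold (adjusted p 1.41e-05), and the other one moved by 0.21. DEPP1, a target of FOXO factors, read 8.72, 9.04 and 8.86 with vehicle and 9.82, 9.81 and 10.02 with T3, a 2.01-fold difference that both of its probe sets passed. With GC-1, against the same vehicle arrays, the differences were 1.06 for TCIM, 1.13 for SGK1, 0.83 for RHEX and 0.97 for DEPP1.

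Among the other increases were enzymes of steroid and amino acid metabolism, grouped here by their known roles for description only. HSD17B2, which oxidises estradiol and testosterone to weaker steroids, read 7.48, 7.52 and 7.33 with vehicle and 8.41, 8.35 and 8.37 with T3, 1.91-fold higher (adjusted p 5.38e-06). HSD11B2, which inactivates cortisol, read 6.33, 6.03 and 6.26 and then 6.998, 7.08 and 7.16, 1.83-fold higher (adjusted p 0.000593). Both enzymes had no overlap between the groups. HAL, histidine ammonia-lyase, the first enzyme of histidine breakdown, went from 7.43, 7.58 and 7.62 to 8.37, 8.66 and 8.28, 1.86-fold higher with T3. Its difference was 0.90 log2 with T3 and 0.36 with GC-1, and GC-1 minus T3 was -0.53 with an adjusted p of 0.163, so a difference between the ligands did not pass. ARG1, the arginase of the urea cycle, rose from 6.89, 6.97 and 6.91 to 7.72, 7.74 and 7.60, or 1.70-fold (adjusted p 3.79e-05). The glutamate transporter SLC1A2 rose 1.77-fold in 1 of 3 probe sets, whose differences ran from -0.11 to 0.82.

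The named increases also held LOX, MMP11 and TNS1. LOX, the lysyl oxidase that crosslinks collagen and elastin, read 9.03, 9.18 and 9.09 with vehicle and 10.03, 10.02 and 10.03 with T3, a difference of 0.93 ± 0.05 log2, and its 3 probe sets all passed. The secreted protease MMP11 rose 1.91-fold (adjusted p 2.00e-06), from 7.87, 7.99 and 7.97 to 8.90, 8.87 and 8.84, although its 3 probe sets ranged from -0.04 to 0.93. TNS1, tensin of focal adhesions, rose 1.91-fold and passed in 3 of 5 probe sets, which ranged from 0.09 to 0.94. In all 3 genes the groups were apart on the probe set used.

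Several named increases encode secreted proteins. C8A, a chain of complement component C8, rose from 8.05, 7.97 and 7.996 to 8.86, 8.81 and 8.94, 1.82-fold (adjusted p 2.93e-06). HPR, haptoglobin-related protein, rose 1.75-fold, but its sequence is close to that of haptoglobin and the array may not part them. HGFAC, the protease that activates hepatocyte growth factor, rose 1.71-fold, and EBI3, a cytokine subunit, 1.71-fold from a dim 5.97, 6.09 and 5.89. APOC1, an apolipoprotein of triglyceride-rich particles, went from 11.74, 11.64 and 11.65 to 12.36, 12.37 and 12.55, 1.68-fold, on a probe set of a type that can bind several transcripts. ISG20, an RNA exonuclease induced by interferon, rose 1.68-fold, and both of its probe sets passed. All 20 named increases kept their call in each alternative that tested them.

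**Figure D3:**
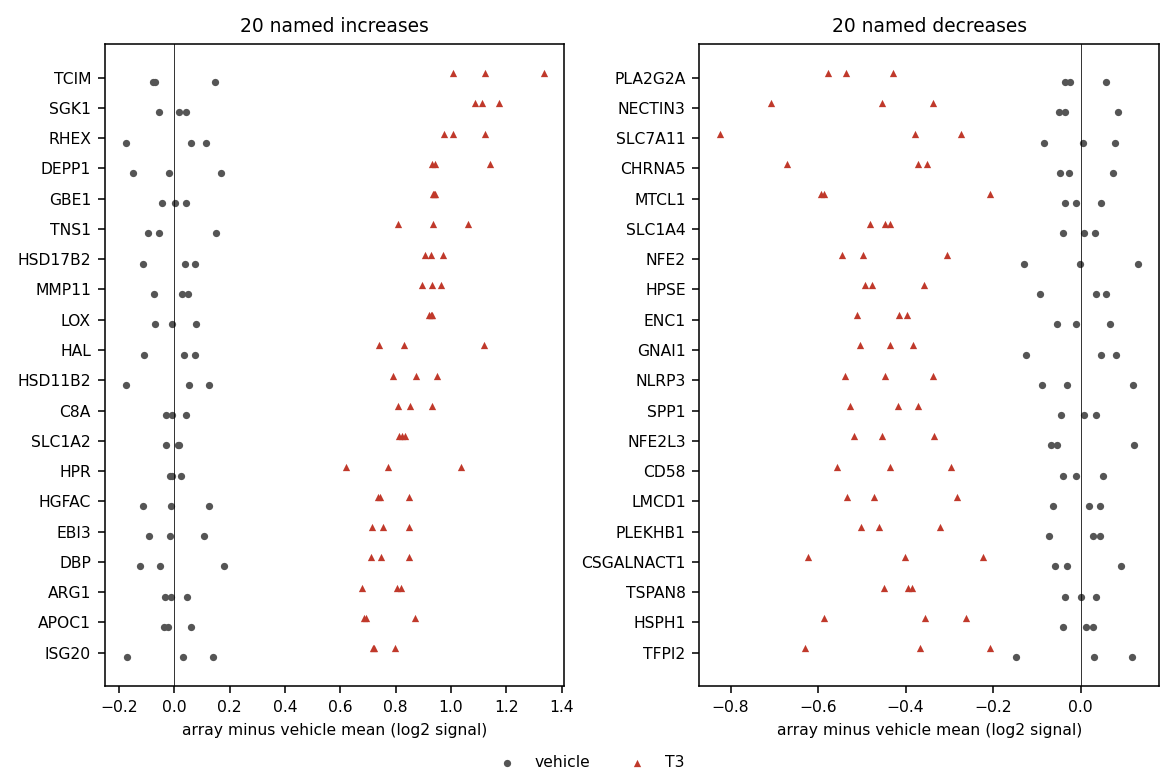
Signal of each array minus the vehicle mean (log2) on the x axis for the 20 named increases (left) and 20 named decreases (right), grey circles for the 3 vehicle arrays and red triangles for the 3 T3 arrays. Groups do not overlap in any row, which the choice of genes requires, and several decreases such as SLC7A11 have 1 T3 array far from the others.

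The named decreases were smaller, from -0.51 to -0.40 log2. PLA2G2A, a secreted phospholipase, read 9.58, 9.67 and 9.57 with vehicle and 9.07, 9.18 and 9.03 with T3, a fall of 1.43-fold (adjusted p 0.000260). SPP1, osteopontin, a secreted matrix and cytokine-like protein, fell from 11.83, 11.86 and 11.78 to 11.40, 11.45 and 11.29, 1.36-fold (adjusted p 0.00106). ENC1, a kelch-repeat protein that binds actin, fell from 11.30, 11.43 and 11.35 to 10.96, 10.94 and 10.85, 1.36-fold (adjusted p 0.000641). In each of these the T3 arrays were all below the vehicle arrays.

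The amino acid transporters SLC1A4 and SLC7A11 were among the decreases. SLC1A4, a transporter of alanine, serine and cysteine, fell from 9.19, 9.16 and 9.11 to 8.70, 8.72 and 8.67, 1.37-fold (adjusted p 0.000198), and its 4 probe sets all passed. SLC7A11, the cystine and glutamate exchanger that feeds glutathione synthesis, read 8.61, 8.70 and 8.77 with vehicle and 8.31, 8.42 and 7.87 with T3. T3 array 3 was by far the lowest there, the difference was -0.49 ± 0.12, and the call was lost in 7 of 19 alternatives, among them the leave-outs of each vehicle array, of T3 array 1 and of GC-1 array 2 (adjusted p 0.0562 to 0.133).

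The other decreases had varied roles. Of 2 factors of the NFE2 family, NFE2 fell 1.37-fold (adjusted p 0.00693) and NFE2L3 1.35-fold (adjusted p 0.00275). NFE2 read 6.36, 6.24 and 6.496 with vehicle and 5.82, 6.06 and 5.87 with T3. NFE2L3 read 7.36, 7.18 and 7.17 and then 6.72, 6.90 and 6.79, so in both the groups were apart. Next came LMCD1, a LIM-domain cofactor, at -0.43, PLEKHB1, a membrane protein with a pleckstrin homology domain, at -0.43, and GNAI1, an inhibitory G-protein subunit, at -0.44 from a dim mean. NLRP3, the inflammasome sensor, was lower by 1.36-fold on 1 of 3 probe sets, whose differences ran from -0.44 to 0.13, and it did not pass when the probe sets were averaged. HSPH1 did not pass there either. CD58, an adhesion ligand of T and NK cells, differed by -0.43, CHRNA5, a nicotinic receptor subunit, by -0.46, and TSPAN8, a tetraspanin, by -0.41. HPSE, which cuts heparan sulfate, differed by -0.44.

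Some decreases rested on few arrays. NECTIN3, a cell adhesion protein, differed by -0.50 ± 0.10 (adjusted p 0.0166) and lost its call without vehicle array 1 or 2 (adjusted p 0.0507 and 0.0697). MTCL1, which crosslinks microtubules, differed by -0.46 and lost it without vehicle array 2 or 3 or T3 array 1 (adjusted p 0.0575 to 0.0649). CSGALNACT1, an enzyme of chondroitin sulfate synthesis, differed by -0.42 and lost it without vehicle array 1 or 3 (adjusted p 0.0613 and 0.0912). TFPI2, a protease inhibitor, at -0.40 with an adjusted p of 0.0383, lost it in 11 of 18 alternatives, and 7 of them left out 1 array, namely vehicle array 1 or 3, T3 array 2 or 3 or any GC-1 array (adjusted p 0.0554 to 0.141).

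**Figure D4:**
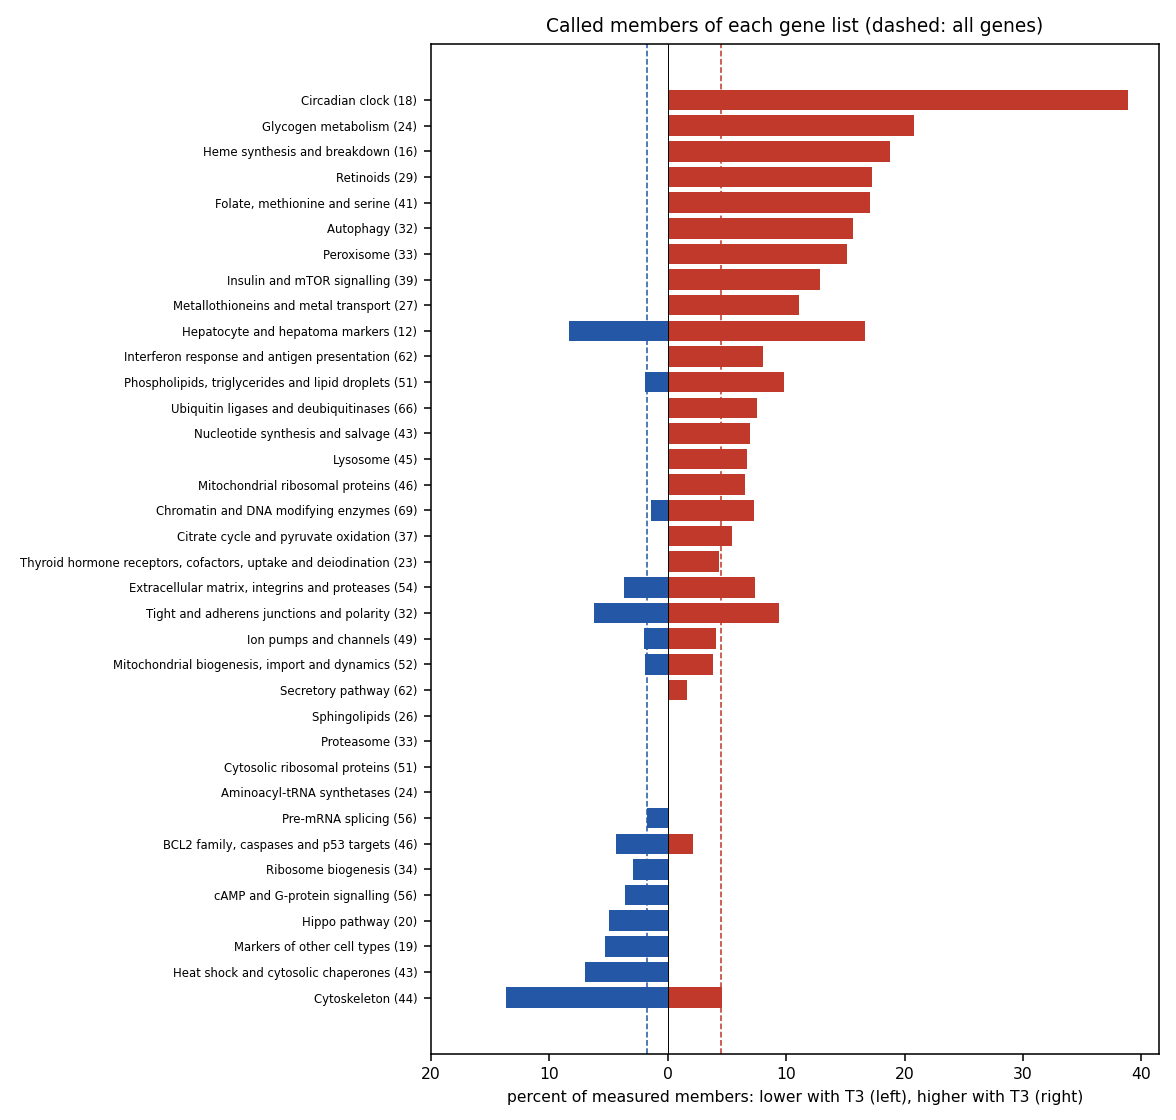
Share of the measured members of each of 36 gene lists called lower (blue, to the left) or higher (red, to the right) with T3, in percent, with the number measured in brackets. Dashed lines mark all genes, 4.51% higher and 1.71% lower, and the circadian clock list has the longest bar at 38.9%.

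Beyond single genes, 36 lists of pathways, organelles and markers were counted, chosen with earlier results of these arrays known and not tested as sets. Their counts are read against 4.51% higher and 1.71% lower among all genes. That background is not matched for signal, and higher calls went from 6 in the dimmest bin to 213 in the brightest. The median vehicle signal was 7.52 over all genes, 7.44 for retinoid and 7.84 for clock genes. It was 8.79 for peroxisomal, 8.99 for autophagy, 9.42 for lysosomal and 9.53 for folate and methionine genes. For such bright lists the share of all genes is a low background. Where a list below has 0 lower members in limma, an unadjusted p under 0.05 would give 1 lower clock gene, 3 glycogen, 1 peroxisomal, 4 folate and methionine, 2 autophagy, 1 lysosomal, 0 heme, 4 retinoid, 7 metal, 2 insulin and mTOR, 3 interferon, 8 nucleotide, 9 ubiquitin, 1 citrate cycle, 2 mitochondrial ribosomal, 2 thyroid hormone pathway and 1 secretory pathway genes. For the lists with 0 higher members it would give 0 chaperones, 7 cAMP, 2 Hippo, 2 ribosome biogenesis and 2 splicing genes. Over all probe sets 4686 of 22215 had an unadjusted p under 0.05 in limma, both directions together. These unadjusted counts are thus not to be read against the adjusted shares.

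Of 18 measured circadian clock genes 7 were higher and 0 lower, or 38.9%, with a list median of 0.09 and 12 positive. In 8 of them all T3 arrays lay above the vehicle arrays, beside 13.6% of all genes, and in 0 all lay below. Across the 19 alternatives 5 to 7 were higher and 0 or 1 lower. The PAR-domain activators, which drive clock output in the liver, changed most. DBP read 6.10, 5.80 and 5.87 with vehicle and 6.63, 6.67 and 6.77 with T3 (1.70-fold, adjusted p 0.000811) in 1 of 2 probe sets, the other at 0.03. HLF read 11.17, 11.21 and 11.18 and then 11.85, 11.71 and 11.81 (1.52-fold, adjusted p 4.30e-05), and its 3 probe sets all passed. NFIL3, the repressor that competes with them for the same sites, rose from 10.97, 10.97 and 10.91 to 11.30, 11.34 and 11.25 (1.27-fold). These 3 genes thus rose on both the activating and the repressing side.

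Other clock genes were called as well. BHLHE40, a repressor of the core loop, rose 1.31-fold (adjusted p 0.00332), and CSNK1D, the kinase that phosphorylates PER proteins, rose from 8.92, 9.03 and 8.97 to 9.38, 9.37 and 9.40 (adjusted p 0.000423). PER2 read 9.22, 9.31 and 9.31 with vehicle and 9.50, 9.48 and 9.59 with T3 (adjusted p 0.0177) in 1 of 2 probe sets, the other at 0.05. The nuclear receptor RORA differed by 0.29 ± 0.06 (adjusted p 0.0252). PER2 lost its call in 4 of 19 alternatives and RORA in 8. The core activators did not pass. CLOCK differed by 0.10, BMAL1 by -0.02 and NPAS2 by 0.03, and of the repressors CRY1 differed by -0.18 and PER3 by -0.13. All arrays were taken at 24 h, so a change of level and a change of phase cannot be told apart.

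Of 24 measured glycogen genes 5 were higher and 0 lower, with a median of -0.01 and 12 positive, and differences ran from -0.31 to 0.94. In 7 all T3 arrays lay above vehicle, beside 13.6% of all genes, and in 5 all lay below, beside 13.3%. GBE1 read 11.77, 11.77 and 11.77 on the T3 arrays against 10.87, 10.84 and 10.79 with vehicle, a difference of 0.94 ± 0.05 (1.92-fold, adjusted p 9.65e-07). GYS1, the muscle-type glycogen synthase, rose from 8.16, 8.14 and 7.95 to 8.52, 8.62 and 8.47 (adjusted p 0.00192). PPP1R3C, a subunit that targets protein phosphatase to glycogen, rose 1.35-fold, and PHKA2, the liver regulatory subunit of phosphorylase kinase, rose 1.34-fold on both of its probe sets. UGP2, which makes UDP-glucose, differed by 0.19 and lost its call in 15 of 19 alternatives, the leave-out of any 1 array among them (adjusted p 0.0577 to 0.164). In the alternatives 4 or 5 genes of the list were higher and up to 3 lower.

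**Figure D5:**
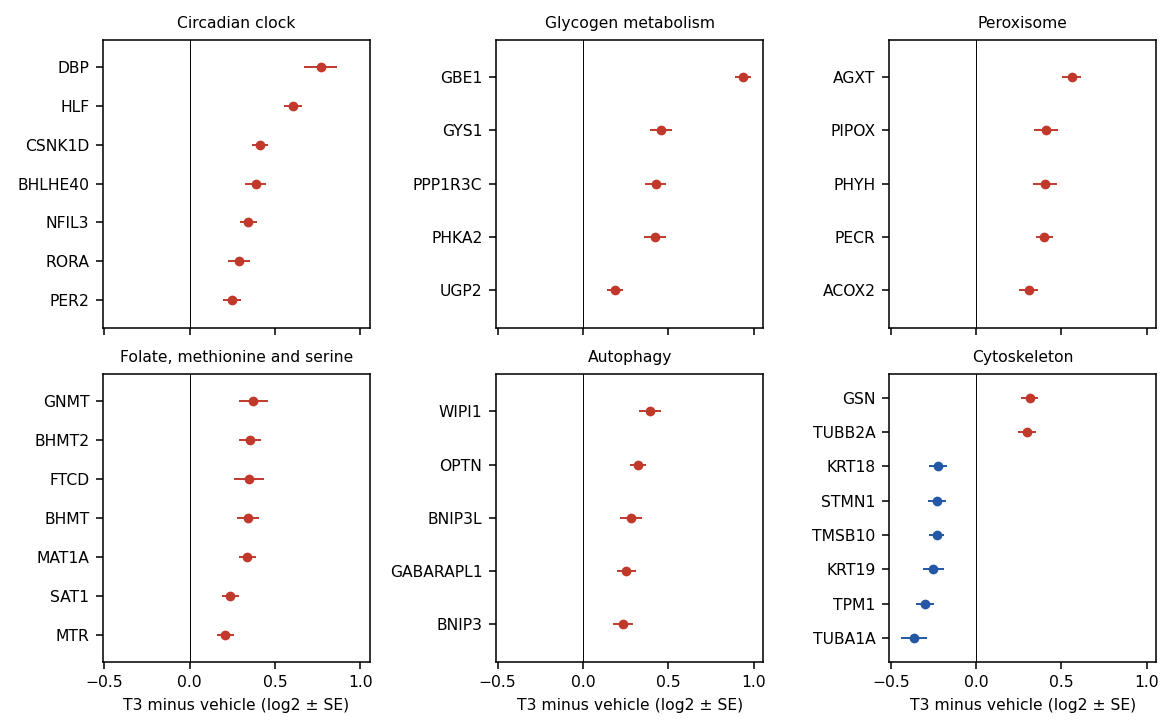
Difference of T3 from vehicle (log2 on the x axis, bars are SE) for the called members of 6 lists, red for higher and blue for lower. Members of the first 5 lists lie to the right of 0, while the cytoskeleton panel has 2 higher and 6 lower genes.

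Several peroxisomal enzymes rose. Of 33 measured genes 5 were higher and 0 lower, and the median was 0.10. In 15 all T3 arrays lay above vehicle, beside 13.6% of all genes, and in 2 all lay below, beside 13.3%. AGXT, which detoxifies glyoxylate, read 7.84, 7.79 and 7.65 with vehicle and 8.31, 8.29 and 8.36 with T3, and its 3 probe sets all passed (1.47-fold, adjusted p 0.000144). PECR, a reductase of fatty acid elongation, rose from 10.06, 10.07 and 10.11 to 10.46, 10.45 and 10.53 (adjusted p 0.000547). PHYH, which starts the alpha-oxidation of phytanic acid, rose 1.32-fold, PIPOX, which oxidises pipecolate and sarcosine, 1.33-fold, and ACOX2, an oxidase of branched chains and bile acid precursors, 1.24-fold. These 3 lost their call in 1 or 2 alternatives and in no leave-out of 1 array. Over the alternatives 3 to 8 members were higher and up to 1 lower.

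Of the genes of folate, methionine and serine metabolism 7 of 41 were higher and 0 lower, with a median of 0.04. In 16 all T3 arrays lay above vehicle, beside 13.6% of all genes, and in 7 all lay below, beside 13.3%. MAT1A, which makes S-adenosylmethionine in the liver, rose from 9.35, 9.36 and 9.36 to 9.76, 9.65 and 9.67 (1.26-fold, adjusted p 0.00204) and kept its call throughout. BHMT, which remethylates homocysteine with betaine, rose 1.27-fold, and its near copy BHMT2 rose 1.28-fold. The pair is alike in sequence and was not separated further, and BHMT lost its call without vehicle array 3 (adjusted p 0.0504). GNMT, which uses S-adenosylmethionine to methylate glycine, read a dim 5.87, 5.84 and 5.96 and then 6.29, 6.09 and 6.41 (adjusted p 0.0291). Calls of GNMT, SAT1, FTCD and MTR were lost in 5 to 12 alternatives each, and 3 to 10 members were higher over the alternatives.

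Of the autophagy genes 5 of 32 were higher and 0 lower, with a median of 0.11 and 17 of 32 with all T3 arrays above vehicle, beside 13.6% of all genes, and 2 with all below, beside 13.3%. WIPI1, which binds the growing autophagosome, rose from 9.07, 8.90 and 8.99 to 9.31, 9.33 and 9.50 (adjusted p 0.00486) on both of its probe sets. The autophagy receptor OPTN rose from 8.97, 9.02 and 8.96 to 9.34, 9.32 and 9.27 (adjusted p 0.00227). GABARAPL1, at 0.25, and the mitophagy receptors BNIP3L, at 0.28, and BNIP3, at 0.23, passed here and lost their calls in 6 to 12 alternatives, so that 2 to 11 members were higher in all. The lysosome list, with 3 of 45 higher and a median of 0.08, had ARSB, the arylsulfatase of dermatan sulfate, at 1.67-fold (adjusted p 0.000130). The share of that list called, 6.67%, was near the 6.22% of all genes. TPP1 and CTSD, both lysosomal proteases, lost their calls in 12 and 15 alternatives, and 1 to 8 members of the list were higher over them.

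Heme, retinoid and metal genes gave shorter lists of increases. In the heme pathway 3 of 16 were higher: ALAD, the second enzyme of synthesis, from 7.86, 7.87 and 7.95 to 8.23, 8.22 and 8.33 (adjusted p 0.00265), biliverdin reductase BLVRB at 0.29 and the electron donor POR at 0.29. BLVRB lost its call without vehicle array 2 (adjusted p 0.0666), and POR without vehicle array 2 or 3 or T3 array 3 (adjusted p 0.0508 to 0.0996), and 1 to 4 were higher over the alternatives. Among retinoid genes 5 of 29 were higher, led by the retinal reductase DHRS3, at 9.39, 9.40 and 9.38 with vehicle and 9.76, 9.63 and 9.96 with T3. The rest of those 5 were AKR1C3, the plasma carrier RBP4, RARRES2 and ADH6, which lost their calls in 3, 5, 9 and 16 alternatives in that order, leave-outs of 1 array among them for each, and 1 to 7 were higher over all of them. The manganese exporter SLC30A10 rose 1.58-fold, from 8.46, 8.39 and 8.32 to 9.08, 9.06 and 9.02, with the zinc importer SLC39A4 at 0.35 and ceruloplasmin (CP) at 0.39. CP lost its call in 8 alternatives and SLC39A4 in 1. Of 27 metal genes 3 were higher, and over the alternatives 1 to 4 were higher and up to 4 lower. All T3 arrays lay above vehicle in 7 heme, 10 retinoid and 5 metal genes, beside 13.6% of all genes. They all lay below in 1, 4 and 7 of them in that order, beside 13.3%.

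Of the insulin and mTOR pathway 5 of 39 genes were higher and 0 lower. SHC1, an adaptor of receptor kinases, read 10.51, 10.50 and 10.55 with vehicle and 10.81, 10.81 and 10.80 with T3 (adjusted p 0.00378). IRS1, the docking protein of the insulin receptor, rose from 9.06, 8.97 and 9.07 to 9.38, 9.44 and 9.30 (adjusted p 0.00435). The kinases PDPK1 and SIK1 rose 1.22-fold and 1.26-fold, and INSR, the receptor itself, differed by 0.22 and lost its call in 12 of 19 alternatives. The count of higher genes ran from 2 to 8 over the alternatives.

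Lipid handling genes outside synthesis and oxidation had 5 of 51 higher and 1 lower, and 4 to 8 higher and up to 3 lower over the alternatives. The lower one was PCYT1B, of phosphatidylcholine synthesis, which had the largest difference of the list, -0.53 (adjusted p 0.0199), and lost its call when any 1 vehicle array was left out. ACSL5, which activates long-chain fatty acids, rose from 8.38, 8.47 and 8.45 to 8.84, 8.81 and 8.86 (adjusted p 0.00182). LPCAT1, of phosphatidylcholine remodelling, rose 1.25-fold, CIDEB, of lipid droplets and VLDL loading, 1.26-fold, and the phosphatidate phosphatase LPIN2 1.25-fold, and all 4 kept their calls in every alternative. PEMT lost its call in 11. Citrate synthase (CS) rose from 10.54, 10.58 and 10.58 to 11.01, 10.94 and 10.88 (adjusted p 0.00144) and the mitochondrial pyruvate carrier subunit MPC1 from 10.87, 10.88 and 10.89 to 11.22, 11.14 and 11.26 (adjusted p 0.00259). They were the called ones of 37 genes of the citrate cycle and pyruvate oxidation, a share near that of all genes, with 1 to 5 higher and up to 3 lower over the alternatives.

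Interferon and antigen presentation genes had 5 of 62 higher, of which ISG20 and GBP2 kept their calls throughout. The list median was -0.03 with 27 positive, and 8.06% of its members were called, beside 6.22% of all genes. GBP2, a guanylate-binding protein, rose from 6.39, 6.49 and 6.41 to 6.99, 6.93 and 6.90 (1.42-fold, adjusted p 0.000212). USP18, IFITM2 and HLA-B differed by 0.23 to 0.29 and lost their calls in 6, 10 and 13 alternatives, and 2 to 12 members were higher and up to 3 lower over all of them. Cell death and p53 genes split, with GADD45B higher on all 4 probe sets (1.41-fold, adjusted p 0.000433) and the BH3-only genes BIK and PMAIP1 lower, at -0.37 and -0.39. BIK lost its call without vehicle array 3 (adjusted p 0.0532) and PMAIP1 in 7 alternatives, and 3 of 46 called is near the share of all genes. Over the alternatives 1 to 6 were higher and up to 6 lower.

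The cytoskeleton list ran the other way, with 2 of 44 higher and 6 lower and a median of -0.04. Tropomyosin TPM1 fell from 9.89, 9.92 and 9.95 to 9.70, 9.62 and 9.55 (adjusted p 0.00734), and TMSB10, a thymosin that sequesters actin, from 13.07, 13.08 and 13.06 to 12.86, 12.84 and 12.81 (adjusted p 0.0109). Both kept their calls in every alternative. The alpha-tubulin TUBA1A fell from 9.19, 9.25 and 9.34 to 8.97, 9.00 and 8.72 and lost its call without vehicle array 2 or 3 (adjusted p 0.0588 and 0.0875), and other tubulin genes are close copies. KRT18, KRT19 and STMN1 differed by -0.23 to -0.25 and lost their calls in 9 to 12 alternatives, with 2 to 10 members lower in all. On the other side the actin-severing GSN rose from 11.25, 11.26 and 11.20 to 11.52, 11.57 and 11.57 (adjusted p 0.00391), and TUBB2A rose 1.23-fold.

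Matrix and junction lists were mixed. COL18A1, the collagen that yields endostatin, rose 1.52-fold on both probe sets (adjusted p 5.64e-05), and the lysyl hydroxylase PLOD1 rose 1.35-fold and the laminin chains LAMC1 and LAMB2 by 0.34 and 0.23, while SPARC and ITGAV differed by -0.26 and -0.28 and lost their calls in 6 and 9 alternatives, and LAMB2 in 5. Of 54 such genes 4 were higher and 2 lower, and 3 to 8 and 0 to 3 over the alternatives. Among 32 junction genes 3 were higher and 2 lower, and 1 to 4 and 0 to 6 over the alternatives. CLDN14, a claudin of tight junctions, rose from 6.32, 6.36 and 6.28 to 6.78, 6.76 and 6.91 (adjusted p 0.00127). E-cadherin (CDH1) read 7.78, 8.01 and 7.96 with vehicle and 8.66, 8.75 and 8.23 with T3, with T3 array 3 well below the other two, on 1 of 2 probe sets (adjusted p 0.0104), and lost its call without vehicle array 1 (adjusted p 0.0524). GJB1 and DSG2 lost theirs in 8 and 10 alternatives.

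Chaperones of the cytosol had 0 of 43 higher and 3 lower, with a median of -0.06. BAG2, a cofactor of HSP70, fell from 9.90, 9.92 and 9.95 to 9.71, 9.65 and 9.57 (adjusted p 0.00799). HSPH1, the large HSP70 relative, fell from 10.49, 10.54 and 10.56 to 10.27, 10.17 and 9.94 (adjusted p 0.00855), and DNAJB4 differed by -0.25 and lost its call in 8 alternatives. From 2 to 9 were lower across the alternatives, 9 of them with the interquartile range as a covariate. Ribosome biogenesis genes had a median of -0.08 with 4 of 34 positive, and 1, GAR1, was lower, which lost its call in 9 alternatives. The count of lower genes was 13 with the interquartile range as a covariate. For pre-mRNA splicing it was 1 of 56, TRA2B, which lost its call in 9 alternatives, and 10 with that covariate.

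Some housekeeping groups had 0 calls in limma. They were the 33 proteasome genes, the 51 cytosolic ribosomal proteins, the 24 aminoacyl-tRNA synthetases and the 26 sphingolipid genes. Medians were 0.001, 0.02, 0.01 and -0.06, and the ribosomal proteins spread from -0.04 to 0.11. At an unadjusted p under 0.05 they had 3, 1, 4 and 2 higher and 0, 0, 0 and 5 lower. Among all probe sets 4686 of 22215 passed that threshold in limma, both directions together. Up to 2 ribosomal proteins were called in an alternative, up to 1 proteasome gene in each direction, up to 4 sphingolipid genes, and up to 2 tRNA synthetases. In the secretory pathway 1 of 62 was called, GOLGA2, which lost its call in 13 alternatives.

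Of 23 measured thyroid hormone receptors, cofactors, transporters and deiodinases 1 passed. This was DIO1, a deiodinase that activates thyroxine and a known target of the hormone, at 0.73, from 8.35, 8.25 and 8.20 to 8.94, 9.02 and 9.02. The cytosolic T3-binding protein CRYM read 8.09, 8.03 and 8.12 with vehicle and 8.23, 8.25 and 8.21 with T3, apart but with an adjusted p of 0.0996. RXRA, the dimer partner, differed by 0.19 (adjusted p 0.144), and the deiodinases DIO2 and DIO3 by -0.03 and -0.14.

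Some lists were called at shares near those of all genes. For nucleotide synthesis 3 of 43 were higher, DPYD, AMPD3 and AMPD2, which lost their calls in 2, 1 and 4 alternatives in that order, and over the alternatives 0 to 5 were higher and up to 7 lower. Ubiquitin ligases and deubiquitinases had 5 of 66 higher and 0 lower, FBXO7 at 0.31, NEDD4L, USP9X, ATXN3 and USP11, which lost their calls in 1, 1, 6, 8 and 12 alternatives in that order. Over the alternatives 1 to 6 were higher and up to 10 lower. Chromatin enzymes had 5 of 69 higher and 1 lower, KMT2D, and 4 of the higher ones, BRD3, HDAC5, KDM4B and SIRT4, lost their calls in 13 to 15 alternatives and KMT2D in 4. Over the alternatives 1 to 7 were higher and up to 4 lower. SMARCB1 differed by 0.26 on the probe set used and -0.34 on the other, and lost its call in 3 alternatives. In the cAMP list 0 of 56 were higher and GNAI1 and RGS16 were lower, RGS16 with its call lost in 10 alternatives, and 0 to 3 were higher and 1 to 6 lower over them. Hippo genes had AMOTL2 lower, 1 of 20, with its call lost in 11. Ion pumps and channels had ITPR2 and ATP11B higher and ATP2B1 lower, 3 of 49, and these calls were lost in 6, 13 and 7 alternatives in that order. Mitochondrial biogenesis had TFB1M and LONP1 higher and TOMM34 lower, 3 of 52, with the calls lost in 4, 11 and 13 alternatives, for TOMM34 without any 1 array. Mitochondrial ribosomal proteins had 3 of 46 higher, MRPL46, MRPL28 and MRPS11, whose calls were lost in 1, 6 and 12 alternatives, and with a common median and spread 0 were higher and 1 lower.

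Probe sets of the same gene did not always move alike. Of the 744 called genes 465 were measured by 1 probe set and 279 by several. In 217 of the 279 all probe sets had the same sign, in 84 every one was called, and in 151 the brightest alone was. For example, differences ran from -0.11 to 0.22 for TPP1, -0.13 to 0.29 for ATXN3 and -0.30 to 0.05 for RGS16. For KMT2D they ran from -0.295 to 0.02 and for KDM4B from -0.04 to 0.29. Each of these genes passed on 1 probe set. Of the 152 called genes named or belonging to the lists, 66 kept their call in each alternative that tested them.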

How the data were processed

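RNA of HepG2 cells was measured on 3' expression arrays, 9 in all and 3 per group. The deposited values are log2 signals made by the authors with RMA, per the submitters' processing notes, with no version given; the log base was inferred from the range of the values. RMA compresses dim signals, so small levels understate fold changes. No scanner files were used here. A gene was read from its brightest probe set with 1 symbol (19064 of 22215; 1043 had several symbols and 2108 none), and 62 controls were left out. One linear model over all 9 arrays was fitted with limma 3.58.1 in R 4.3.3 (lmFit, eBayes, two-sided), with the Benjamini-Hochberg adjustment taken over all probe sets. The model was checked on simulated data. The members and lists were chosen with earlier results of these data known. The named genes are the 20 largest increases and 20 largest decreases past 0.05 with separate groups, without 72 genes named earlier, and the members of each list past the threshold or among its 4 smallest p-values. Outside that rule, ALB, CDH5, CD3E, PTPRC, CLOCK, BMAL1, NPAS2, CRY1, PER3, DIO2 and DIO3 were picked by hand. Alternatives covered the samples fitted, normalization, dim probe sets (the lowest 40%), the prior, array weights, the replicate number as a block, the interquartile range, each array left out and the mean of a gene's probe sets. Promoters are from RefSeq (GRCh38.p14). The number of arrays limits the precision.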

Additional observations from a re-analysis of the deposited data

Results flagged for a closer look

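APAF1, the scaffold of the apoptosome, was lower on every T3 array and higher on every GC-1 array than on all vehicle arrays. GC-1 minus T3 was 0.28 log2. It read 7.51, 7.58 and 7.47 with vehicle and 7.27, 7.34 and 7.38 with T3, and T3 minus vehicle was -0.19 (adjusted p 0.0609, limma). The difference between the ligands did not pass across all probe sets (adjusted p 0.175). Both ligands share the vehicle arrays. The values are from the brightest of 3 probe sets of APAF1, whose T3 differences ran from -0.19 to -0.04, and 0 of them passed. APAF1 was picked by this pattern out of the 199 genes followed.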

How the results depend on the processing

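Of the values of 199 genes followed over 19 alternatives, 587 lost the call, 114 gained one and 1 reversed: SMARCB1, at -0.042 with the mean of all probe sets. The other 3063 values were counted as unchanged. For genes not called in the main fit a change of sign also counted as unchanged, so the 1 reversal covers called genes alone. Of the 20 named decreases 16 to 20 stayed called in the alternatives that tested all of them, and without dim probe sets 14 were tested and 14 stayed called. The count of higher probe sets, 888, ran from 543 to 926 with 1 array left out, that of lower ones, 334, from 112 to 430, and that at 1.5-fold, 121, from 121 to 128. Lower probe sets numbered 156 with the 6 arrays alone, 505 with a common median and spread, 504 without dim probe sets, 670 with a trended and robust prior, 1152 with the interquartile range as covariate and 980 with T3 arrays 1 and 2 left out, where T3 array 3 stands alone. The last pair gave 203 and 195 probe sets at 1.5-fold. With the replicate block there were 602 higher and 171 lower. Deviations from the group means correlated at -0.04, -0.03 and -0.02 between same-numbered vehicle and T3 arrays. With 3 arrays per group and no word in the labels, these values cannot decide whether the numbers pair the samples. T3 array 3 had the lowest array weight, 0.300. The causes were not tested.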
